A study of Homo sapiens with 8 samples.

Results

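Gene expression in U2OS cells that overexpress MYC was compared with that in WT U2OS cells over all genes. The comparison rests on 4 of the 8 RNA-seq libraries of the series, 2 with the genotype MYC O/E (called MYC here) and 2 with the genotype WT. U2OS is an established human osteosarcoma line, a tumour line of bone-forming mesenchymal origin. The other 4 libraries carry Zab alone or Zab with overexpressed MYC (Zab+MYC). The labels do not spell out Zab, a name in common use for the domains of the RNA-editing enzyme ADAR1 that bind Z-form nucleic acids. Those libraries serve here as another background for the same MYC contrast. The labels do not give the vector, the promoter or the length of overexpression, or whether the cells were 1 clone. Nor do they state if the pair of libraries in a group stems from different cultures. Of 19414 genes in the files, 9673 passed a filter on low counts and were tested.

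MYC is a basic helix-loop-helix leucine zipper transcription factor that binds DNA as a dimer with MAX, with a preference for the E-box. It is known for raising genes of biomass supply (ribosome and RNA synthesis, nucleotide, amino acid and lipid metabolism, mitochondrial function), and for lowering many differentiation, adhesion and cell cycle inhibitor genes, in part through MIZ1. In bone tumours MYC gain is common, while matrix and growth factor signalling of the TGF-beta and BMP family is part of the osteoblast program.

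MYC itself, at chromosome 8 from 128748477 to 128755197 (hg19, as are all gene coordinates), stood at 72.6 and 94.8 CPM in WT and 1237 and 1289.6 in MYC. It was higher in both MYC libraries (14.9-fold, log2 3.90 ± 0.091 SE, limma adjusted p = 3.5e-49). CPM are exon tags scaled to a common library total with TMM factors. Fold changes come from log2(CPM + 2), so those of genes with few tags are too small. Introduced and endogenous MYC transcripts are not separated in the values. The line's defining mesenchymal markers were partly present: VIM and SPARC were abundant, while COL1A2 and TWIST1 were at 0 in all 4 libraries. The 10 mesenchymal and bone markers summed to 10520 to 10710 CPM in WT and 5371 to 5531 in MYC. Most of this sum was VIM (7308 and 7030 CPM in WT, 4805 and 4940 in MYC). SPARC stood at 1848 and 1850 CPM in WT and 378.3 and 385 in MYC. FN1 stood at 386.1 and 391 CPM in WT and 42.97 and 44.41 in MYC. PRRX1 was not called, at 10.7 and 9.54 CPM in WT and 14.0 and 17.8 in MYC. The 8 blood markers summed to 1.26 to 3.18 CPM in WT and 3.17 to 4.67 in MYC with 4 of them at 0, and the 6 endothelial markers to 3.18 to 5.05 and 0.793 to 0.934 with 2 at 0. The 8 epithelial markers summed to 1604 to 1679 CPM in WT and 1085 to 1139 in MYC, with KRT8 lower (989.9 and 1015 CPM to 271.3 and 297), KRT18 higher (596.8 and 650.0 to 811.2 and 837.9), and CDH1 and GRHL2 at 0.

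Exon tags ran from 756377 to 909601 in WT and from 1119460 to 1326170 in MYC. Exons held 70.6% and 71.1% of tags in WT and 76.1% and 75.9% in MYC, so this share moved with the group, and its part in the results was not tested. Libraries of a group differed by little more than counting noise (chi-square per degree of freedom 1.025 between the WT libraries and 1.0 between the MYC libraries, over genes with 20 or more tags). Whether the p-values below cover any spread between cultures is thus not known, and each library's value is given in place of an SD. In bulk RNA, fewer cells of a kind and less RNA per cell cannot be told apart.

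Of the 9673 genes tested, 5633 were called at a limma adjusted p under 0.05, which is 58.2%. Higher in MYC were 2692 (27.8%) and lower 2941 (30.4%). Past 2-fold, 1185 were higher (12.3%) and 1778 lower (18.4%). Both MYC libraries lay outside the range of both WT libraries for 7627 genes (78.8%), and they did so for every gene named below as called. HOMER kept 1 transcript per gene symbol in each file, and for 10574 of the 19414 genes it was the same in the 4 libraries, so some values compare transcripts of unlike length. Against that background the members of 39 pathway lists were counted, with 980 different genes tested. Of these, 343 were higher (35.0%) and 306 lower (31.2%). The median change of all genes tested was log2 -0.04, and 20 lists had a median above it and 19 below. Lists of the supply and handling of RNA and protein lay at the upper end, and lists of secreted, surface and lysosomal proteins at the lower end.

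**Figure D1:**
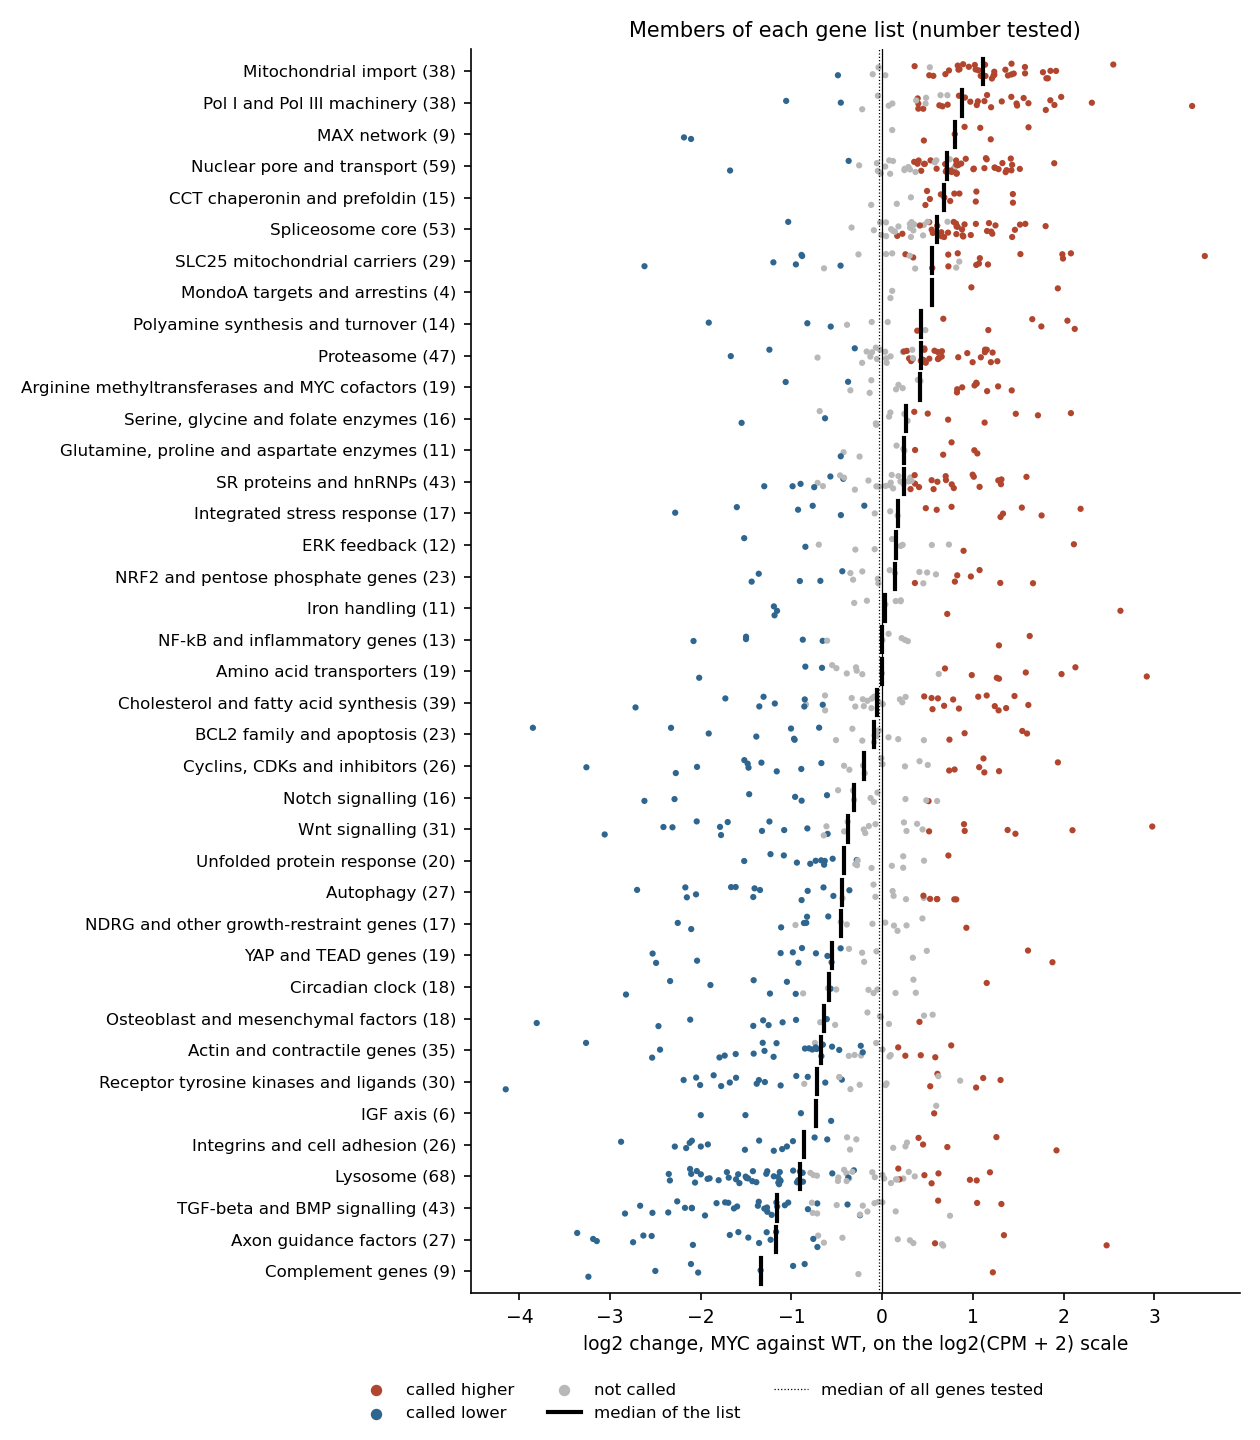
Change of each tested member of 39 gene lists, MYC against WT, on the log2(CPM + 2) scale, with red and blue points for members called higher and lower and grey points for members not called. Black bars mark list medians, which run from 1.11 for mitochondrial import to -1.34 for complement genes, and the dotted line marks the median of all genes tested, -0.04.

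Among genes of at least 100 CPM in the higher group, the largest rises held genes of unlike roles, some of them tied to mitochondria. RGS16 and SLCO4A1 were also among the largest rises and are taken up further below. PPARGC1B, a coactivator of mitochondrial genes, stood at 9.46 and 9.54 CPM in WT and 107 and 117 in MYC (9.88-fold, log2 3.31 ± 0.24 SE, limma adjusted p = 2.1e-20). NDUFAF4, an assembly factor of respiratory complex I, stood at 16.4 and 11.7 CPM in WT and 142 and 122 in MYC (log2 3.07, limma adjusted p = 1.5e-20), and PPIF, the cyclophilin of the mitochondrial matrix, at 68.1 and 86.9 CPM in WT and 545 and 559 in MYC (log2 2.81, limma adjusted p = 3.5e-35). FABP5, a fatty acid binding protein, stood at 75.1 and 84.2 CPM in WT and 604 and 599 in MYC (7.40-fold, log2 2.89 ± 0.10 SE, limma adjusted p = 1.0e-37). NOP16, a ribosome assembly gene, stood at 53.0 and 63.0 CPM in WT and 425 and 420.3 in MYC (log2 2.83, limma adjusted p = 2.6e-34), and ARC, best known as an activity-induced neuronal gene, at 51.7 and 64.1 CPM in WT and 403 and 444 in MYC (log2 2.83, limma adjusted p = 2.6e-32). Each gene whose levels are given in this paragraph was at least 7.01-fold higher, and no MYC library came near the WT levels.

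The largest falls at that level held genes of unlike roles. IGFBP5, a binding protein of insulin-like growth factors, fell most, at 901 and 894 CPM in WT and 15.9 and 11.9 in MYC (57.1-fold, log2 -5.83 ± 0.19 SE, limma adjusted p = 2.5e-40). ELFN1, a leucine-rich repeat membrane protein of synapses, stood at 109 and 124 CPM in WT and 2.80 and 7.14 in MYC (17.8-fold, log2 -4.15 ± 0.28 SE, limma adjusted p = 1.1e-21), and CLIP3, a linker of membranes and microtubules, at 105 and 112 CPM in WT and 4.20 and 5.55 in MYC (log2 -4.01, limma adjusted p = 4.0e-23). ARHGEF40, a guanine nucleotide exchange factor, stood at 220.2 and 269.6 CPM in WT and 17.7 and 11.5 in MYC (log2 -3.91, limma adjusted p = 1.3e-31), and PHLDA1, a pleckstrin homology protein often induced by growth signals, at 326 and 332 CPM in WT and 20.5 and 23.0 in MYC (log2 -3.80, limma adjusted p = 3.5e-28). SERPINA1, alpha-1 antitrypsin, stood at 121 and 111 CPM in WT and 9.34 and 5.55 in MYC (log2 -3.67, limma adjusted p = 2.4e-21). These genes went from over 100 CPM to under 25 CPM in both MYC libraries. PPARGC1B, NOP16, CLIP3, ARHGEF40 and SERPINA1 were counted on transcripts that differed between libraries. Of the 9673 genes tested, 5239 were counted on the same transcript in the 4 libraries, and below this is stated for only some genes.

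Polyamine synthesis, which begins with the decarboxylation of ornithine, was higher at several steps. Of the 9 synthesis genes tested, 6 rose and 1 fell (DHPS, not called without MYC replicate 2), with a median of log2 1.17. ODC1, ornithine decarboxylase, on chromosome 2 from 10580094 to 10588138, was at 553 and 555 CPM in WT and 2315 and 2264 in MYC (4.12-fold, log2 2.04 ± 0.051 SE, limma adjusted p = 3.8e-47). SRM, spermidine synthase, on chromosome 1 from 11114646 to 11120075, was at 649.8 and 669.6 CPM in WT and 2853 and 2910.3 in MYC (4.36-fold, log2 2.12 ± 0.043 SE, limma adjusted p = 4.1e-53), and AMD1, which makes the aminopropyl donor, at 63.1 and 54.0 CPM in WT and 173 and 205 in MYC (log2 1.66, limma adjusted p = 6.6e-15). All 3 genes were well above WT in both MYC libraries. On the breakdown side, PAOX, a polyamine oxidase, stood at 11.4 and 12.7 CPM in WT and 1.87 and 1.59 in MYC (log2 -1.91, limma adjusted p = 0.00024), and OAZ1, the antizyme that leads ODC1 to degradation, was higher by a smaller amount (log2 0.39).

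The upstream windows of 5 genes with the canonical E-box CACGTG before a start listed by RefSeq are shown, the 5 with the largest rises among those that the naming rule gives, because MYC-MAX dimers are known to bind this sequence. Each run is the 250 bases before a start in GRCh38.p14, from RefSeq, written 5′ to 3′ along the gene with the E-box in capitals. The windows are SLC7A5 (chr16:87869508-87869757, minus strand), SRM (chr1:11060019-11060268, minus), ODC1 (chr2:10448013-10448262, minus, at the second of 2 starts along the gene), HSPD1 (chr2:197500275-197500524, minus, at the first of 2) and RAN (chr12:130871816-130872065, plus). The E-box begins 130, 199, 29, 88 and 102 bases before the start, in that order.
SLC7A5: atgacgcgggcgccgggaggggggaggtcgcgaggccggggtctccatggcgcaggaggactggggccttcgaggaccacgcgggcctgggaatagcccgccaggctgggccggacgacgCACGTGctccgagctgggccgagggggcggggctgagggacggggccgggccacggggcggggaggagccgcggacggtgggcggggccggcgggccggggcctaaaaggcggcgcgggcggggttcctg
SRM: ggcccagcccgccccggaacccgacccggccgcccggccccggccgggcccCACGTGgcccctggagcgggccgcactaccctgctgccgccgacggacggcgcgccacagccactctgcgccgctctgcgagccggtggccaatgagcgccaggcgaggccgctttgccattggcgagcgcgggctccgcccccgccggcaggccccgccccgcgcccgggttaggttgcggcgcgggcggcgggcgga
ODC1: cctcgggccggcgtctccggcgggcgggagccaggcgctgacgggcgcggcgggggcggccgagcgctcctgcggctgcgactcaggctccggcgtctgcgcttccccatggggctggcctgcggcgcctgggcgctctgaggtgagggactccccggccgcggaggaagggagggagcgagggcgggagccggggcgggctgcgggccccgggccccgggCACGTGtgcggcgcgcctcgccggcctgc
HSPD1: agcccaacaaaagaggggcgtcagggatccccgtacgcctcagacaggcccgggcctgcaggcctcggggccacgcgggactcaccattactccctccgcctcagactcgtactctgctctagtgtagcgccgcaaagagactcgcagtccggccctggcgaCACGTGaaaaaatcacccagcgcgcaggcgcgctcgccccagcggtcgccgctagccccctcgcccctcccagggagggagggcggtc
RAN: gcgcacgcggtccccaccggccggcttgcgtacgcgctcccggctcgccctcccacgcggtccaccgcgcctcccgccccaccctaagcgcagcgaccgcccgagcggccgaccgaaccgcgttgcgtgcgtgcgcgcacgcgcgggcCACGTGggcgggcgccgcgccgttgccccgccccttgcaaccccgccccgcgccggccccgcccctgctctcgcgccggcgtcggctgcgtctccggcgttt
A match is a description of the letters and does not show that MYC binds there in these cells.

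Amino acid uptake was split. SLC7A5, the light chain of the large neutral amino acid exchanger, on chromosome 16 from 87863629 to 87903113, was at 82.0 and 99.1 CPM in WT and 426 and 379 in MYC (4.38-fold, log2 2.13 ± 0.11 SE, limma adjusted p = 2.9e-28). Its heavy chain SLC3A2 stood at 151 and 175 CPM in WT and 520.3 and 463 in MYC (3.0-fold, log2 1.58 ± 0.090 SE, limma adjusted p = 9.3e-26), so both subunits of the exchanger were higher together. SLC7A2, a cationic amino acid carrier, stood at 6.31 and 1.06 CPM in WT and 37.4 and 34.9 in MYC (log2 2.92, limma adjusted p = 6.3e-11), and the glutamine carrier SLC1A5 rose less (log2 0.69). SLC38A10 fell, from 137 and 115 CPM to 24.3 and 35.7 (log2 -2.02, limma adjusted p = 4.4e-16). Over the whole list, 8 of 19 rose and 3 fell. Of the 3 that fell, SLC1A4 and SLC6A9 were not called without WT replicate 1. The median was log2 -0.003, but 0.99 over the 6 members counted on the same transcript in the 4 libraries, of which 4 rose and 1 fell.

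Folate and one-carbon genes moved unevenly. MTHFD2, the mitochondrial methylene-tetrahydrofolate dehydrogenase, stood at 149 and 127 CPM in WT and 387 and 383 in MYC (2.78-fold, log2 1.47 ± 0.10 SE, limma adjusted p = 2.3e-21). The mitochondrial folate carrier SLC25A32 (log2 2.08, limma adjusted p = 8.5e-09) and the plasma membrane folate carrier SLC19A1 (log2 1.72, limma adjusted p = 1.3e-11) rose with it. PHGDH, which opens serine synthesis from glycolysis, went the other way, at 397 and 455 CPM in WT and 286 and 262 in MYC (log2 -0.63, limma adjusted p = 6.6e-09). Of 10 folate cycle genes 6 rose and 1 fell, while of 6 serine and glycine genes 1 rose and 1 fell. Among 11 glutamine, proline and aspartate enzymes, 5 rose and 1 fell. Those that rose include GLUD1, glutamate dehydrogenase (log2 1.02). The median of these enzymes was log2 0.24, but -0.25 over the 5 counted on the same transcript in the 4 libraries, of which 1 rose and 1 fell.

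Mitochondrial protein import had the highest median of the 39 lists. Nearly all mitochondrial proteins are made in the cytosol and pass the TOM complex of the outer membrane and the TIM complexes of the inner membrane before chaperones fold them in the matrix. Of 38 import genes, 33 rose and 1 fell (median log2 1.11). Over the 31 counted on the same transcript in all 4 libraries, 27 rose and 0 fell. TOMM40, the import channel, stood at 104 and 124 CPM in WT and 431 and 441 in MYC (3.78-fold, log2 1.92 ± 0.10 SE, limma adjusted p = 5.6e-27). TIMM50, the receptor of the inner membrane translocase, stood at 144 and 169 CPM in WT and 554 and 565 in MYC (3.55-fold, log2 1.83 ± 0.091 SE, limma adjusted p = 3.9e-29). GRPEL1, the nucleotide exchange factor of the import motor, had the largest change of the list, at 18.9 and 24.4 CPM in WT and 128 and 144 in MYC (5.85-fold, log2 2.55 ± 0.19 SE, limma adjusted p = 3.2e-19). All 11 genes of the matrix motor, chaperones and peptidase rose. They include the chaperonin HSPD1, at 541 and 495 CPM in WT and 1736 and 1815 in MYC (3.42-fold, log2 1.77 ± 0.055 SE, limma adjusted p = 3.1e-41), and its lid HSPE1, at 233 and 237 CPM in WT and 788 and 874 in MYC (3.51-fold, log2 1.81 ± 0.076 SE, limma adjusted p = 2.2e-33), which lie next to each other on chromosome 2. The 1 lower gene, TIMM17B, changed by log2 -0.49 and lost its call without MYC replicate 1 (log2 -0.32, limma adjusted p = 0.14).

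Carriers of the SLC25 family, which move metabolites across the inner membrane, did not move as a block. Of 29, 15 rose and 6 fell. The glutamate carrier SLC25A22 stood at 29.0 and 38.1 CPM in WT and 139 and 138 in MYC (log2 1.99, limma adjusted p = 1.1e-15). At the other end, SLC25A29, a carrier of basic amino acids, stood at 42.9 and 44.0 CPM in WT and 6.07 and 4.76 in MYC (log2 -2.62, limma adjusted p = 6.0e-11). Both carriers were counted on transcripts that differed between libraries.

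The machinery of RNA polymerases I and III, which make ribosomal RNA and transfer RNA, rose on a broad front. Of 17 Pol I genes, 14 rose and 0 fell (median log2 1.20). Of 21 Pol III genes, 13 rose and 2 fell (median log2 0.66). CD3EAP, a Pol I subunit, stood at 61.8 and 62.5 CPM in WT and 297 and 338 in MYC (4.97-fold, log2 2.31 ± 0.13 SE, limma adjusted p = 3.2e-26), and POLR1B, the second-largest Pol I subunit, at 24.6 and 28.6 CPM in WT and 99.9 and 121 in MYC (log2 1.97, limma adjusted p = 7.7e-15). POLR3G, the Pol III subunit typical of stem and tumour cells, went from 3.79 and 4.24 CPM to 62.6 and 61.9 (10.7-fold, log2 3.42 ± 0.32 SE, limma adjusted p = 6.2e-15). Its paralog POLR3GL stood at 13.9 and 5.83 CPM in WT and 2.80 and 3.97 in MYC. The call of POLR3GL (log2 -1.06, limma adjusted p = 0.048) ended when any 1 of the 8 libraries except WT replicate 2 was left out, with a limma adjusted p of up to 0.501. MAF1, a repressor of Pol III, fell by a small amount (log2 -0.46).

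Nuclear pore and transport genes numbered 59, of which 39 rose and 2 fell (median log2 0.71). RAN, the GTPase that gives nuclear transport its direction, on chromosome 12 from 131356611 to 131362223, was at 1284 and 1383 CPM in WT and 3647 and 3559.8 in MYC (2.70-fold, log2 1.43 ± 0.038 SE, limma adjusted p = 1.4e-45). XPO5, the exporter of microRNA precursors, stood at 50.5 and 72.6 CPM in WT and 220.0 and 243 in MYC (3.73-fold, log2 1.90 ± 0.14 SE, limma adjusted p = 3.0e-20). Among nucleoporins the outlying gene was NUP210, a membrane ring component, which fell from 39.1 and 31.8 CPM to 11.7 and 7.93 (log2 -1.68, limma adjusted p = 8.9e-06).

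Splicing genes were counted as the core and its regulators. Of 53 core spliceosome genes, 32 rose and 1 fell. GEMIN5, which loads the Sm ring onto small nuclear RNAs, stood at 56.8 and 73.6 CPM in WT and 234 and 227 in MYC (3.49-fold, log2 1.80 ± 0.14 SE, limma adjusted p = 1.7e-18), U2AF1, the reader of the splice acceptor, at 132 and 147 CPM in WT and 433 and 406 in MYC (2.99-fold, log2 1.58 ± 0.098 SE, limma adjusted p = 8.0e-24), and SNRPA1 of the U2 particle at 107 and 93.8 CPM in WT and 288 and 295 in MYC (log2 1.52, limma adjusted p = 2.9e-19). The 1 member that fell was SNRPN, an Sm protein gene of the imprinted Prader-Willi region, at 169.7 and 219 CPM in WT and 81.3 and 106 in MYC (log2 -1.04, limma adjusted p = 8.3e-10). Of the regulators, 18 of 43 SR protein and hnRNP genes rose and 6 fell. SRSF1, a splicing factor often described as a MYC target, stood at 58.0 and 55.1 CPM in WT and 118 and 125 in MYC (log2 1.07, limma adjusted p = 8.7e-08), SYNCRIP at 176 and 155 CPM in WT and 499 and 504 in MYC (log2 1.59, limma adjusted p = 1.0e-24) and SRSF5 at 68.8 and 59.9 CPM in WT and 24.8 and 24.98 in MYC (log2 -1.30, limma adjusted p = 2.5e-06).

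PRMT5 and its partner WDR77, which methylate Sm proteins, were both higher. PRMT5 stood at 72.6 and 89.0 CPM in WT and 173 and 191 in MYC (log2 1.16, limma adjusted p = 7.4e-11) and WDR77 at 102 and 108 CPM in WT and 279 and 292 in MYC (log2 1.43, limma adjusted p = 3.4e-19). PRMT2 fell (log2 -1.06). Of the 10 acetylation and remodelling cofactors of MYC, 3 rose (30.0%, against 27.8% of all genes tested) and 1 fell. The helicase RUVBL1 was among those that rose (log2 1.28, limma adjusted p = 6.2e-25).

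The cytosolic chaperonin and the proteasome rose in larger shares than the 27.8% of all genes. All 8 subunits of the cytosolic chaperonin CCT, which folds actin and tubulin, were higher. CCT2 stood at 504 and 564 CPM in WT and 1452 and 1451 in MYC (2.72-fold, log2 1.44 ± 0.057 SE, limma adjusted p = 3.6e-35) and CCT5 at 354 and 385 CPM in WT and 765 and 757 in MYC (log2 1.04, limma adjusted p = 1.5e-21). Of 47 proteasome genes, 29 rose and 3 fell, with a median of log2 0.43. ADRM1, a ubiquitin receptor of the regulatory particle, stood at 777 and 835 CPM in WT and 1786 and 1758 in MYC (log2 1.14, limma adjusted p = 2.6e-32). PSME1 and PSME2, which form the interferon-inducible activator of the proteasome, fell together. PSME1 stood at 427 and 426 CPM in WT and 178 and 180.0 in MYC (log2 -1.24, limma adjusted p = 3.5e-20) and PSME2 at 159.6 and 150.4 CPM in WT and 37.4 and 59.9 in MYC (log2 -1.67, limma adjusted p = 4.2e-14). Of the 47 proteasome genes these were the only 2 that fell past 2-fold.

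**Figure D2:**
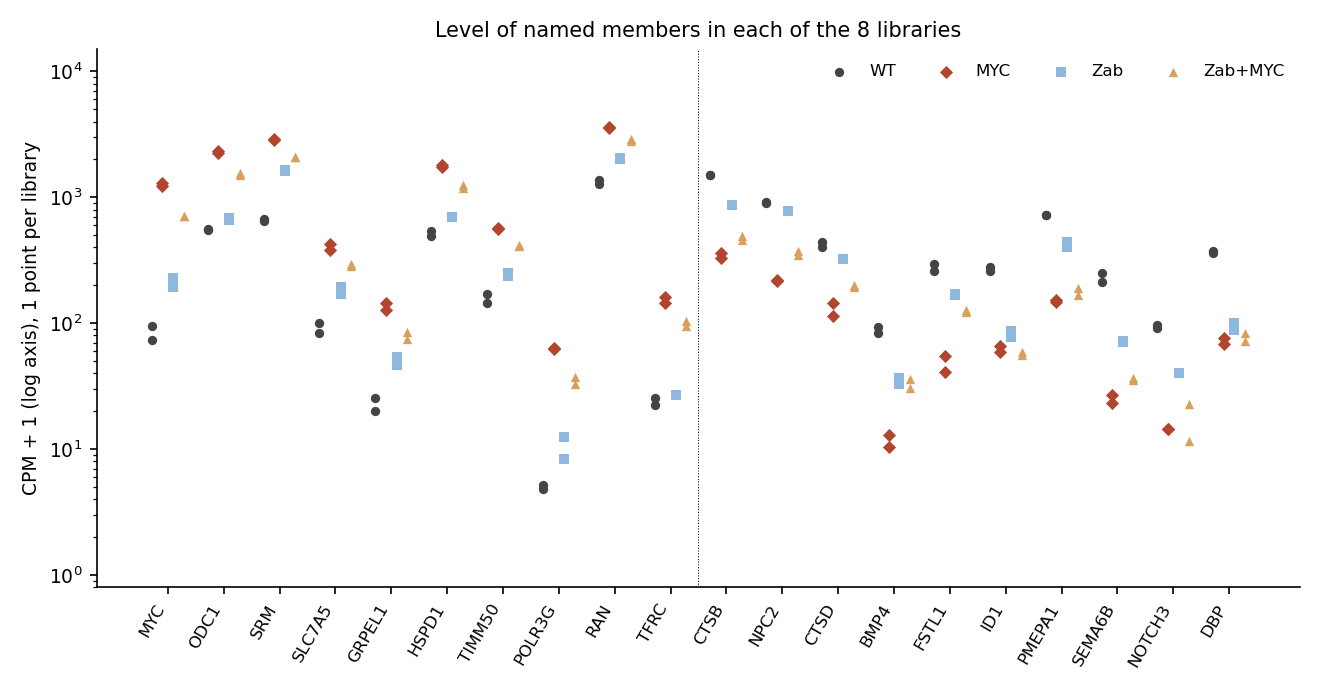
CPM plus 1 on a log axis for 20 named members in each of the 8 libraries, with 1 point per library and a marker per group. Members left of the dotted line were higher in both MYC libraries than in both WT libraries, and those right of it were lower.

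Lipid genes were counted by branch. Of 14 fatty acid genes, 8 rose and 3 fell. FASN, fatty acid synthase, stood at 379 and 338 CPM in WT and 857 and 893 in MYC (2.44-fold, log2 1.28 ± 0.070 SE, limma adjusted p = 9.4e-27), and SCD, which introduces the first double bond, at 164 and 165 CPM in WT and 437 and 418 in MYC (log2 1.37, limma adjusted p = 2.6e-20). ELOVL6, which lengthens the product, rose too (log2 1.61). The desaturases of polyunsaturated fatty acids fell, with FADS2, at chromosome 11 from 61583876 to 61634826, at 226 and 227 CPM in WT and 29.0 and 36.9 in MYC (6.59-fold, log2 -2.72 ± 0.15 SE, limma adjusted p = 2.7e-27) and its neighbour FADS1 at 238 and 257 CPM in WT and 106 and 92.4 in MYC (log2 -1.31, limma adjusted p = 1.9e-15). FADS1 and FADS2 overlap in the hg19 coordinates of the files, and the use of strand in counting is not given. ACSS2, which makes acetyl-CoA from acetate, fell as well (log2 -1.73, limma adjusted p = 1.9e-05). Of 18 cholesterol genes 5 rose (27.8%, the share of all genes tested) and 2 fell (11.1%, against 30.4%).

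Iron and redox genes held a few large changes in both directions. TFRC, the transferrin receptor that brings iron into the cell, on chromosome 3 from 195776155 to 195808961, was at 21.4 and 24.4 CPM in WT and 143 and 161 in MYC (6.18-fold, log2 2.63 ± 0.20 SE, limma adjusted p = 1.4e-19). FTH1, the heavy chain of the iron store ferritin, stood at 3376 and 3388 CPM in WT and 1476 and 1478 in MYC (2.29-fold, log2 -1.19 ± 0.038 SE, limma adjusted p = 4.9e-41). In all, 2 of 11 iron genes rose and 3 fell, and the rise of SLC11A2, an iron carrier, was not called without WT replicate 1 or without MYC replicate 2. Of the iron genes 18.2% rose and 27.3% fell, against 27.8% and 30.4% of all genes tested. The median of the iron list was log2 0.03, but -0.56 over the 4 members counted on the same transcript, of which 0 rose and 2 fell. TXN, thioredoxin, stood at 261 and 261 CPM in WT and 646 and 648 in MYC (log2 1.30, limma adjusted p = 1.5e-24), while NQO1, a quinone reductase and a standard NRF2 target, stood at 189.9 and 177 CPM in WT and 71.9 and 68.6 in MYC (log2 -1.36, limma adjusted p = 1.1e-11). Of 23 NRF2 and pentose phosphate genes, 7 rose and 5 fell (3 without MYC replicate 2). These shares, 30.4% higher and 21.7% lower, compare with 27.8% and 30.4% of all genes tested. In the pentose phosphate pathway RPIA, which makes ribose phosphate, rose (log2 1.66).

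The lysosome was the largest list with a median well below 0. Lysosomes degrade material with acid hydrolases, kept acid by a proton pump, and their genes are known to be driven by TFEB and TFE3. Of 38 hydrolases and cofactors, 28 fell and 3 rose (median log2 -1.13). CTSB, cathepsin B, stood at 1493 and 1503 CPM in WT and 363 and 330.3 in MYC (4.30-fold, log2 -2.11 ± 0.064 SE, limma adjusted p = 3.3e-42). CTSD, cathepsin D, on chromosome 11 from 1773985 to 1785157, was at 437 and 405 CPM in WT and 143 and 113 in MYC (3.28-fold, log2 -1.71 ± 0.10 SE, limma adjusted p = 1.4e-24). NPC2, which hands cholesterol out of the lysosome, on chromosome 14 from 74946638 to 74960215, was at 895 and 921 CPM in WT and 216 and 221 in MYC (4.12-fold, log2 -2.04 ± 0.073 SE, limma adjusted p = 7.9e-38). FUCA1, a fucosidase, had the largest fall of the hydrolases, at 44.8 and 30.2 CPM in WT and 6.54 and 4.76 in MYC (log2 -2.35, limma adjusted p = 1.1e-08). CTSC, cathepsin C, moved the other way (log2 1.04).

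The proton pump did not follow the hydrolases. Of its 16 genes, 5 rose and 4 fell, with a median of log2 0.05. These shares lay near the 27.8% higher and 30.4% lower of all genes tested. The difference between the pump and the hydrolases was not tested. ATP6V0B stood at 134 and 129 CPM in WT and 267 and 252 in MYC (log2 0.97, limma adjusted p = 1.6e-11), and the catalytic subunit ATP6V1A at 92.7 and 97.5 CPM in WT and 47.2 and 38.1 in MYC (log2 -1.13, limma adjusted p = 1.2e-06). TFE3 stood at 80.8 and 81.1 CPM in WT and 36.9 and 31.7 in MYC (log2 -1.19, limma adjusted p = 4.4e-07). TFEB stood at 17.7 and 15.9 CPM in WT and 7.94 and 3.17 in MYC (log2 -1.39, limma adjusted p = 0.0028), and was no longer called without MYC replicate 2. Over the 37 lysosome genes counted on the same transcript in the 4 libraries, 19 fell and 5 rose. In autophagy, 14 of 27 genes fell and 6 rose, the latter 3 without WT replicate 2 or without MYC replicate 2. ULK1, the kinase that starts autophagosome formation, stood at 42.9 and 63.6 CPM in WT and 5.60 and 7.14 in MYC (6.51-fold, log2 -2.70 ± 0.31 SE, limma adjusted p = 8.4e-12), and OPTN, a cargo receptor, at 41.0 and 51.9 CPM in WT and 9.34 and 8.33 in MYC (log2 -2.15, limma adjusted p = 6.5e-09).

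The stress lists were mixed or lower. Integrated stress response genes, which follow the factor ATF4, rose in 8 of 17 cases and fell in 6. ATF4 itself stood at 406 and 418 CPM in WT and 604 and 649.5 in MYC (log2 0.60, limma adjusted p = 1.4e-11), ATF5 at 39.1 and 34.4 CPM in WT and 154 and 198 in MYC (4.56-fold, log2 2.19 ± 0.16 SE, limma adjusted p = 1.5e-19), TRIB3, a pseudokinase target, at 56.8 and 38.7 CPM in WT and 170.0 and 157 in MYC (log2 1.76, limma adjusted p = 1.3e-15) and CHAC1, which degrades glutathione, at 25.9 and 36.0 CPM in WT and 85.9 and 99.9 in MYC (log2 1.54, limma adjusted p = 4.0e-12). DDIT4, an inhibitor of mTORC1, went down to 19.6 and 19.03 CPM from 90.8 and 114 (4.87-fold, log2 -2.28 ± 0.24 SE, limma adjusted p = 2.2e-13). Unfolded protein response genes fell in 11 of 20 cases, or in 6 without MYC replicate 2. HSPA5, the main chaperone of the endoplasmic reticulum, stood at 273 and 281 CPM in WT and 175 and 179 in MYC (log2 -0.64, limma adjusted p = 1.6e-06) and the calcium-binding chaperone CALR at 323 and 320.5 CPM in WT and 141 and 161 in MYC (log2 -1.08, limma adjusted p = 1.7e-14).

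Apoptosis genes of the BCL2 family changed in both directions. BMF, a BH3-only death gene, stood at 25.2 and 28.6 CPM in WT and at 0 in both MYC libraries, at least 21.0-fold lower when set against a floor of 3 tags over the group (limma adjusted p = 1.5e-09). BAD, another BH3-only gene, stood at 155 and 155 CPM in WT and 45.8 and 34.5 in MYC (log2 -1.91, limma adjusted p = 1.3e-16), and the mitophagy receptor BNIP3L at 126 and 87.4 CPM in WT and 22.9 and 16.3 in MYC (log2 -2.33, limma adjusted p = 1.0e-13). The survival gene BCL2L1 fell too, from 154 and 132 CPM to 75.7 and 65.0 (log2 -1.0, limma adjusted p = 8.0e-11). CYCS, cytochrome c, which serves respiration and apoptosis alike, stood at 74.4 and 76.8 CPM in WT and 247 and 220.1 in MYC (log2 1.60, limma adjusted p = 2.1e-17), and BID, which links death receptors to mitochondria, at 49.2 and 52.4 CPM in WT and 143 and 161 in MYC (log2 1.55, limma adjusted p = 2.7e-14). In all, 7 of 18 death genes fell (38.9%, against 30.4% of all genes tested) and 4 rose (22.2%, against 27.8%). The median of the whole list was log2 -0.09. It was 0.32 over the 10 members counted on the same transcript in the 4 libraries, of which 4 rose and 2 fell.

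In the cell cycle entry list, inhibitors fell and D-type cyclins rose. CCND2 stood at 367 and 377 CPM in WT and 892 and 931 in MYC (2.44-fold, log2 1.29 ± 0.064 SE, limma adjusted p = 2.9e-29), CCND1 at 259.9 and 246 CPM in WT and 545 and 558 in MYC (log2 1.12, limma adjusted p = 2.1e-18) and their kinase CDK6 at 177 and 146 CPM in WT and 326 and 381 in MYC (log2 1.13, limma adjusted p = 2.0e-15). CDK4 was not called, at 150.2 and 179.6 CPM in WT and 144 and 143 in MYC (limma adjusted p = 0.19). Of 10 genes listed with the G1 cyclins and kinases, 5 rose and 2 fell. Those that fell were CDC25B and CDC25C, which are phosphatases and neither cyclins nor kinases. Of 8 E2F factors, 2 rose and 2 fell. Of 8 inhibitors and pocket proteins, 6 fell and 0 rose. CDKN2C, the CDK4 and CDK6 inhibitor p18, stood at 24.0 and 27.0 CPM in WT and 0.934 and 0.793 in MYC (limma adjusted p = 1.3e-09), with 44.5 tags in WT and 2 in MYC, a ratio of 29.9, 95% interval 7.71 to 252 for counting error. CDKN1C, or p57, stood at 34.7 and 25.96 CPM in WT and 8.87 and 3.57 in MYC (log2 -2.04, limma adjusted p = 6.4e-06).

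TGF-beta and BMP genes fell among ligands and targets. Ligands of this family act through paired serine-threonine kinase receptors and SMAD factors, and latent TGF-beta is stored in the matrix. Of 18 ligands and binders, 14 fell and 2 rose (median log2 -1.24). BMP4, on chromosome 14 from 54416455 to 54423609, was at 83.3 and 92.2 CPM in WT and 9.34 and 11.9 in MYC (7.14-fold, log2 -2.84 ± 0.25 SE, limma adjusted p = 5.0e-16). FSTL1, a secreted BMP-binding protein, stood at 297 and 259 CPM in WT and 53.7 and 39.7 in MYC (5.79-fold, log2 -2.53 ± 0.14 SE, limma adjusted p = 6.0e-27), and LTBP2, a latent TGF-beta binding family member of microfibrils, at 149.5 and 155 CPM in WT and 21.5 and 23.0 in MYC (6.36-fold, log2 -2.67 ± 0.18 SE, limma adjusted p = 7.6e-22). The 2 that rose were BMP2, at 22.7 and 20.7 CPM in WT and 57.4 and 56.3 in MYC (log2 1.31, limma adjusted p = 7.0e-06), and BMP6, at 113 and 129 CPM in WT and 261 and 242 in MYC (log2 1.05, limma adjusted p = 7.8e-11). BMP4 on the 1 side and BMP2 and BMP6 on the other thus moved apart within the BMP ligands.

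Of the receptors of this family, 2 of 7 fell (28.6%, against 30.4% of all genes tested) and 0 rose. Those that fell were BMPR2, at 114 and 119 CPM in WT and 32.2 and 40.4 in MYC (log2 -1.63, limma adjusted p = 8.9e-12), and ACVR1, at 17.0 and 29.1 CPM in WT and 7.01 and 3.97 in MYC (log2 -1.73, limma adjusted p = 3.9e-05). Of 18 SMADs and targets, 12 fell and 1 rose. PMEPA1, a feedback inhibitor induced by TGF-beta, on chromosome 20 from 56223452 to 56285071, was at 727 and 719.9 CPM in WT and 153 and 146 in MYC (4.79-fold, log2 -2.26 ± 0.091 SE, limma adjusted p = 2.0e-34). ID1, a direct BMP target, stood at 261 and 277 CPM in WT and 64.9 and 57.9 in MYC (4.28-fold, log2 -2.10 ± 0.15 SE, limma adjusted p = 4.5e-20). No MYC library reached the lowest WT library in either target. The 27 members counted on the same transcript gave 20 lower and 3 higher, with the same median (log2 -1.16). The summed mesenchymal markers, with VIM, SPARC and FN1 among them, fell in the same libraries, from at least 10520 to at most 5531 CPM. The part of these markers in the falls of the list was not tested.

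Of the YAP, Wnt and Notch lists, that of YAP had the highest share of lower genes. YAP and TEAD genes, which respond to cell spreading and tension, were lower in 11 of 19 cases (57.9% against 30.4% of all genes, and 7 genes without MYC replicate 2) and higher in 2. CCN2, a standard target, stood at 573 and 539 CPM in WT and 148 and 121 in MYC (4.12-fold, log2 -2.04 ± 0.091 SE, limma adjusted p = 8.2e-32), ANKRD1 at 27.8 and 25.4 CPM in WT and 6.07 and 1.19 in MYC (log2 -2.49, limma adjusted p = 2.9e-08) and the factor TEAD2 at 33.4 and 23.8 CPM in WT and 3.74 and 2.78 in MYC (log2 -2.53, limma adjusted p = 1.1e-07), whereas TEAD4 stood at 51.7 and 46.6 CPM in WT and 155 and 153 in MYC (log2 1.61, limma adjusted p = 1.4e-14). In Wnt signalling, 12 of 31 genes fell (38.7%) and 7 rose (22.6%), shares near those of all genes (30.4% and 27.8%). DKK3, a secreted Dickkopf family protein, stood at 234 and 248 CPM in WT and 23.8 and 30.9 in MYC (8.34-fold, log2 -3.06 ± 0.16 SE, limma adjusted p = 6.9e-28), and the receptor FZD2 at 106 and 90.1 CPM in WT and 16.8 and 16.7 in MYC (log2 -2.41, limma adjusted p = 1.4e-16). The receptor FZD8 moved the other way (log2 2.10, limma adjusted p = 2.0e-06). WNT10B was at 0 in both WT libraries and at 15.9 and 11.9 CPM in MYC, at least 7.94-fold higher against the same floor (limma adjusted p = 1.2e-06). NOTCH3, on chromosome 19 from 15269849 to 15311806, was at 95.9 and 91.1 CPM in WT and 13.5 and 13.5 in MYC (6.15-fold, log2 -2.62 ± 0.27 SE, limma adjusted p = 1.7e-13) and its target class gene HES1 at 29.0 and 37.6 CPM in WT and 5.60 and 4.76 in MYC (log2 -2.29, limma adjusted p = 1.9e-07). Notch genes were lower in 6 of 16 cases (37.5%), also near the share of all genes, and in 3 without WT replicate 1 or without MYC replicate 1.

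Receptor tyrosine kinases and their ligands were counted apart. The 30 genes together had a median of log2 -0.72. It was -0.47 over the 9 counted on the same transcript in the 4 libraries, of which 4 fell and 2 rose. Of 18 receptors, 11 fell and 2 rose (61.1% and 11.1%, against 30.4% and 27.8% of all genes tested). Of 12 ligands, 5 fell (41.7%) and 3 rose, which lies nearer the shares of all genes. The difference between these shares was not tested, and FGFR4, of the 2 receptors that rose, was not called without WT replicate 2 or without MYC replicate 1. PDGFRB, a platelet-derived growth factor receptor of mesenchymal cells, stood at 37.2 and 30.2 CPM in WT and at 0 in both MYC libraries, at least 25.96-fold lower (limma adjusted p = 2.8e-13). DDR1, a collagen receptor kinase, stood at 36.6 and 57.7 CPM in WT and 7.01 and 10.3 in MYC (log2 -2.19, limma adjusted p = 3.8e-09) and GAS6, the ligand of AXL, at 119.9 and 109 CPM in WT and 26.2 and 27.8 in MYC (log2 -2.01, limma adjusted p = 1.1e-14). MET, the hepatocyte growth factor receptor (log2 0.61, limma adjusted p = 0.00097), and the angiogenic ligands VEGFA (log2 1.31, limma adjusted p = 3.5e-06) and VEGFC (log2 1.11, limma adjusted p = 2.2e-05) rose. EGFR was not called, at 30.9 and 23.3 CPM in WT and 35.5 and 21.4 in MYC (limma adjusted p = 0.91). In the IGF axis, whose list does not hold IGFBP5 and of which 4 of 6 genes fell and 1 rose, IGFBP6 stood at 92.7 and 72.0 CPM in WT and 24.3 and 14.7 in MYC (log2 -2.0, limma adjusted p = 2.9e-12), and among 12 ERK feedback genes, of which 2 rose and 2 fell (SPRED3, of the latter, was not called without WT replicate 1, WT replicate 2 or MYC replicate 2), DUSP7 stood at 13.9 and 29.7 CPM in WT and 114 and 79.3 in MYC (log2 2.11, limma adjusted p = 6.2e-12).

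Genes of cell shape and attachment were mostly lower. Of 35 actin and contractile genes, 22 fell and 5 rose (3 without WT replicate 1). MYL6, a myosin light chain, stood at 290.2 and 296 CPM in WT and 48.6 and 49.2 in MYC (5.80-fold, log2 -2.54 ± 0.12 SE, limma adjusted p = 5.6e-30). TNS3, a focal adhesion adaptor, stood at 125 and 164 CPM in WT and 13.1 and 13.1 in MYC (9.62-fold, log2 -3.27 ± 0.22 SE, limma adjusted p = 2.2e-22), MYL9, the regulatory light chain of contractile myosin, at 100.3 and 98.0 CPM in WT and 14.9 and 18.2 in MYC (log2 -2.45, limma adjusted p = 5.8e-15) and FLNA, which crosslinks actin, at 527 and 556 CPM in WT and 189 and 215 in MYC (log2 -1.42, limma adjusted p = 6.2e-25). TAGLN, a smooth muscle marker, was not called, at 90.2 and 71.0 CPM in WT and 86.9 and 74.2 in MYC (limma adjusted p = 0.99). Of 11 integrins, 8 fell and 1 rose. ITGA3 stood at 326 and 348 CPM in WT and 85.0 and 89.6 in MYC (3.79-fold, log2 -1.92 ± 0.10 SE, limma adjusted p = 8.0e-27), and the 1 that rose was ITGA4, at 2.52 and 5.83 CPM in WT and 18.7 and 22.6 in MYC (log2 1.92, limma adjusted p = 4.2e-05). L1CAM, a neural adhesion protein also found on tumour cells, stood at 146 and 155 CPM in WT and 21.0 and 16.7 in MYC (7.36-fold, log2 -2.88 ± 0.18 SE, limma adjusted p = 1.5e-23). The 26 integrin and adhesion genes together had a median of log2 -0.86. It was -0.35 over the 13 counted on the same transcript in the 4 libraries, of which 6 fell and 3 rose.

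Axon guidance factors, which outside the nervous system act in cell migration, were lower in 16 of 27 cases and higher in 3 (median log2 -1.17). SEMA6B, on chromosome 19 from 4542605 to 4559696, was at 212 and 248 CPM in WT and 26.2 and 22.2 in MYC (8.86-fold, log2 -3.15 ± 0.19 SE, limma adjusted p = 1.1e-24), SEMA3C at 64.3 and 66.2 CPM in WT and 6.07 and 4.76 in MYC (9.11-fold, log2 -3.19 ± 0.32 SE, limma adjusted p = 3.3e-14) and EFNB3, a transmembrane ephrin, at 39.1 and 37.1 CPM in WT and 0.934 and 3.17 in MYC (10.3-fold, log2 -3.36 ± 0.38 SE, limma adjusted p = 3.8e-12). These 3 were counted on the same transcript in all 4 libraries. On the 13 such members of the list the median was log2 -0.64, with 5 lower and 3 higher. The fall of the list was thus larger on genes whose counted transcript varied, a difference that was not tested. The neural markers summed to 415.8 to 423.8 CPM in WT and 300.3 to 306.1 in MYC, with TUBB3 lower (205.7 and 197.6 CPM to 47.6 and 52.7) and NEFL higher (194.9 and 221.4 to 249.9 and 247.8), and their part was not tested.

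Complement genes were lower in 7 of 9 cases. C3, the central component, stood at 44.2 and 35.0 CPM in WT and 2.80 and 1.98 in MYC (9.45-fold, log2 -3.24 ± 0.34 SE, limma adjusted p = 5.3e-13). CD55, which protects cells from complement, moved the other way, at 49.2 and 41.9 CPM in WT and 107 and 109 in MYC (log2 1.22, limma adjusted p = 3.3e-08). Among osteoblast and mesenchymal factors 9 of 18 fell. SOX4 stood at 487 and 433 CPM in WT and 106 and 102 in MYC (4.34-fold, log2 -2.12 ± 0.12 SE, limma adjusted p = 1.2e-25) and SOX9, the cartilage factor, at 195 and 171 CPM in WT and 59.8 and 74.9 in MYC (log2 -1.42, limma adjusted p = 1.7e-14). MGP, which holds back calcification, stood at 36.6 and 39.7 CPM in WT and 0.934 and 0.793 in MYC (limma adjusted p = 9.1e-10), with 66.5 tags in WT and 2 in MYC, a ratio of 44.6, 95% interval 11.8 to 374. RUNX2, the osteoblast factor, was not called, at 22.1 and 16.4 CPM in WT and 10.7 and 11.5 in MYC (limma adjusted p = 0.13).

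Clock genes were lower in 8 of 18 cases (44.4%, against 30.4% of all genes tested). DBP, a clock output factor, on chromosome 19 from 49133287 to 49140636, was at 362 and 377 CPM in WT and 75.7 and 67.4 in MYC (5.06-fold, log2 -2.34 ± 0.14 SE, limma adjusted p = 1.1e-24). ARNTL (BMAL1), the partner of CLOCK, stood at 15.1 and 20.7 CPM in WT and 1.87 and 0 in MYC (limma adjusted p = 1.9e-08), with 31.5 tags in WT and 2 in MYC, a ratio of 21.1, 95% interval 5.48 to 185. PER2, a repressor in the loop, was the 1 member that rose, at 24.6 and 21.2 CPM in WT and 49.97 and 56.7 in MYC (log2 1.15, limma adjusted p = 0.00033), and PER1 was not called (limma adjusted p = 0.20). NDRG1, named for its repression by N-MYC, stood at 90.2 and 79.5 CPM in WT and 17.3 and 19.03 in MYC (log2 -2.11, limma adjusted p = 3.5e-12), in a list of growth-restraint genes of which 7 of 17 fell, or 4 without WT replicate 1 and 3 without WT replicate 2. Of 13 NF-kB and inflammatory genes, 2 rose and 5 fell (3 without WT replicate 2 or without MYC replicate 1). These shares, 15.4% higher and 38.5% lower, compare with 27.8% and 30.4% of all genes tested. NFKB1 rose (log2 1.63, limma adjusted p = 1.8e-12) and IER3, an immediate early target, fell, at 348 and 382 CPM in WT and 79.4 and 90.4 in MYC (log2 -2.08, limma adjusted p = 1.1e-23). Of 9 genes of the MAX network, 6 rose and 2 fell. MAX, the dimer partner of MYC, stood at 47.9 and 46.6 CPM in WT and 156 and 142 in MYC (log2 1.61, limma adjusted p = 3.9e-14), and TXNIP, a glucose-responsive gene of the related MondoA network, at 7.57 and 10.6 CPM in WT and 36.4 and 44.0 in MYC (log2 1.94, limma adjusted p = 1.4e-07).

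The share of promoters with an E-box differed along the classes of change. CACGTG reads the same on both strands and was searched in the RefSeq windows from 250 bases before to 50 bases after each start, 300 bases in all (GRCh38.p14). It was found in 7.26% of all 35116 windows. The tested genes with a window numbered 7889, with 11594 windows, of which 9.74% held it. For genes lower by at least 4-fold the share was 4.54% of 595 windows, for genes not called 9.13% of 4964, and for genes higher by at least 4-fold 25.9% of 139. A variant, CACGCG, searched on both strands, rose as well, from 9.24% to 24.5% over the same classes. The windows of these classes had median GC contents from 65.0% to 67.0% and median CG pairs from 21 to 27. In the tercile of windows with the fewest CG pairs, CACGTG was held by 4.79% of windows of genes at least 2-fold lower and 14.7% of those at least 2-fold higher, and in the tercile with the most by 5.66% and 18.0%.

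**Figure D3:**
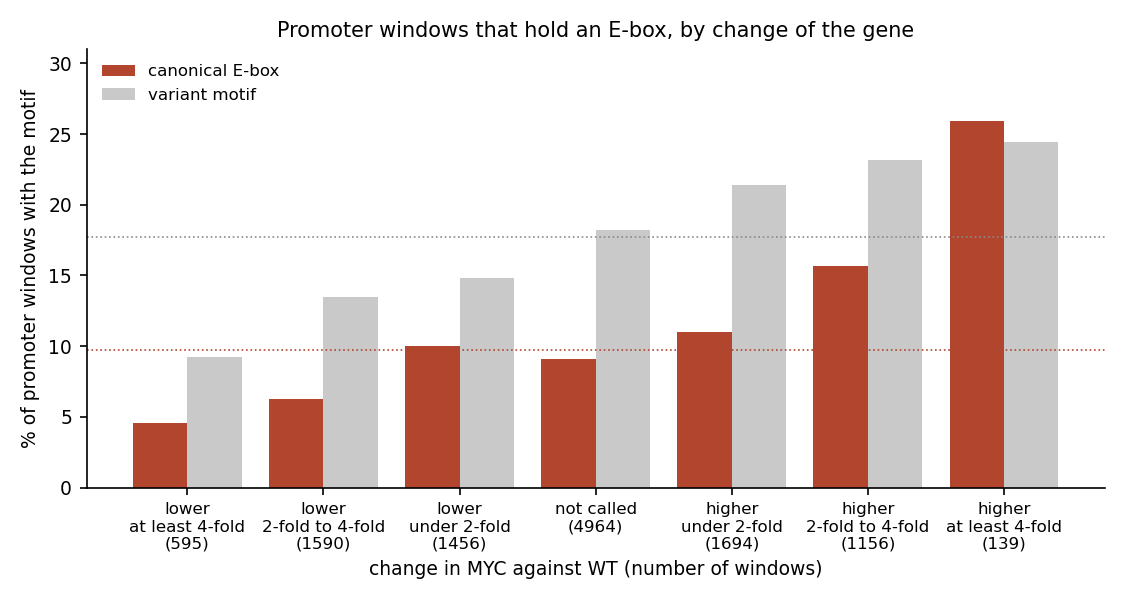
Percent of promoter windows that hold the E-box or its variant, by class of change in MYC against WT. The E-box share runs from 4.54% in the class with the largest falls to 25.9% in the class with the largest rises, and the dotted line of the same colour is the share over the windows of all genes tested, 9.74%.

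Lists that moved alike held the E-box in unlike shares. Of 39 windows of import genes 17.9% held the E-box, but 0 of 18 windows of the chaperonin and prefoldin genes did, although 12 of 15 were higher. Lysosome genes held it in 23.9% of 71 windows, although 40 of 68 fell. The lysosomal CLEAR element, to which TFEB and TFE3 bind, contains the same CACGTG. For actin and contractile genes the share was 1.54% of 65 windows. These shares describe letters in the windows and say nothing of binding.

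The same MYC contrast in cells with Zab gave smaller changes for most genes. Zab+MYC against Zab called 2592 of 9673 genes (26.8%), of which 1385 were higher (14.3%) and 1207 lower (12.5%), and DESeq2 called 926. The difference between the 2 effects was called for 2695 genes (27.9%, 1118 with DESeq2), with the effect smaller with Zab in 2493 and larger in 202. Of 2150 genes called in both comparisons, 2075 moved the same way (96.5%). Across the 9673 genes, which are not independent of each other, the slope of the effect with Zab on that without was 0.366, and noise in the values lowers such a slope. The MYC transcript differed less as well, at 229.5 and 194 CPM in Zab and 707 and 705 in Zab+MYC (log2 1.73). ADAR, named here after its values were seen, stood at 6003 and 6198 CPM in Zab and 1068 and 1018 in Zab+MYC, against 264 and 269.6 in WT. The 2 Zab groups thus differed in both transcripts, and the part of either in the smaller effect was not tested.

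**Figure D4:**
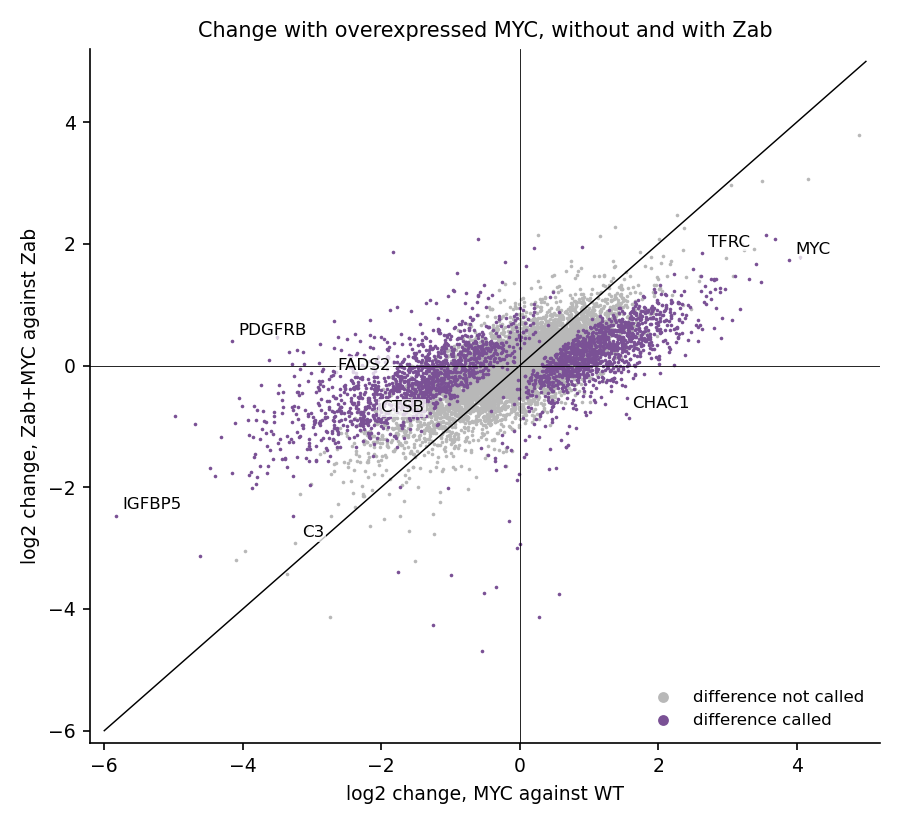
Each point is 1 of the 9673 tested genes, with its log2 change in MYC against WT on the x axis and in Zab+MYC against Zab on the y axis. Purple points are genes whose 2 effects differed at a limma adjusted p under 0.05, the diagonal marks equal change, and for 2493 of the 2695 purple points the effect was smaller with Zab.

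In 32 of the 39 lists the median lay nearer 0 with Zab than without, and in 8 it had the other sign. Mitochondrial import went from log2 1.11 to 0.49, with 27 of 38 genes still higher. TGF-beta and BMP genes went from -1.16 to -0.37, with 13 of 43 lower, and lysosome genes from -0.91 to -0.34, with 24 of 68 lower. Members differed in the change that was left. TFRC stood at 25.8 and 25.7 CPM in Zab and 103 and 93.6 in Zab+MYC (log2 1.85 against 2.63, difference adjusted p = 0.028 by limma). C3 stood at 58.8 and 56.9 CPM in Zab and 4.87 and 7.09 in Zab+MYC (log2 -2.92 against -3.24), and its difference was not called (limma adjusted p = 0.68).

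Other members changed little or not at all with Zab. SRM stood at 1606 and 1647 CPM in Zab and 2108 and 2109 in Zab+MYC (log2 0.37 against 2.12, limma adjusted p of the difference = 3.0e-37). Its Zab level already lay above both WT libraries. BMP4 stood at 35.9 and 31.8 CPM in Zab and 35.0 and 29.8 in Zab+MYC (log2 -0.06 against -2.84, limma adjusted p of the difference = 2.3e-09), and the Zab level lay below both WT libraries. FADS2 stood at 146 and 143 CPM in Zab and 121 and 135 in Zab+MYC (log2 -0.17 against -2.72), and DBP at 87.5 and 98.5 CPM in Zab and 82.7 and 71.6 in Zab+MYC (log2 -0.26 against -2.34). PDGFRB, at 0 in both MYC libraries, stood at 7.17 and 5.51 CPM in Zab and 8.76 and 9.21 in Zab+MYC. For these 5 genes both Zab libraries lay outside the range of the WT libraries, on the side of MYC.

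Of the list members, 5 were called in both comparisons in opposite directions: CHAC1, CTSL, NR1D1, TAGLN2 and TEAD1. CHAC1 stood at 141 and 158 CPM in Zab and 93.4 and 78.0 in Zab+MYC, a fall (log2 -0.79, limma adjusted p = 0.00024) where MYC against WT was a rise. Both Zab libraries lay above both MYC libraries. PER2 stood at 7.17 and 7.96 CPM in Zab and 43.8 and 36.1 in Zab+MYC (log2 2.13 against 1.15), and the difference of its effects was not called (limma adjusted p = 0.058).

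**Figure D5:**
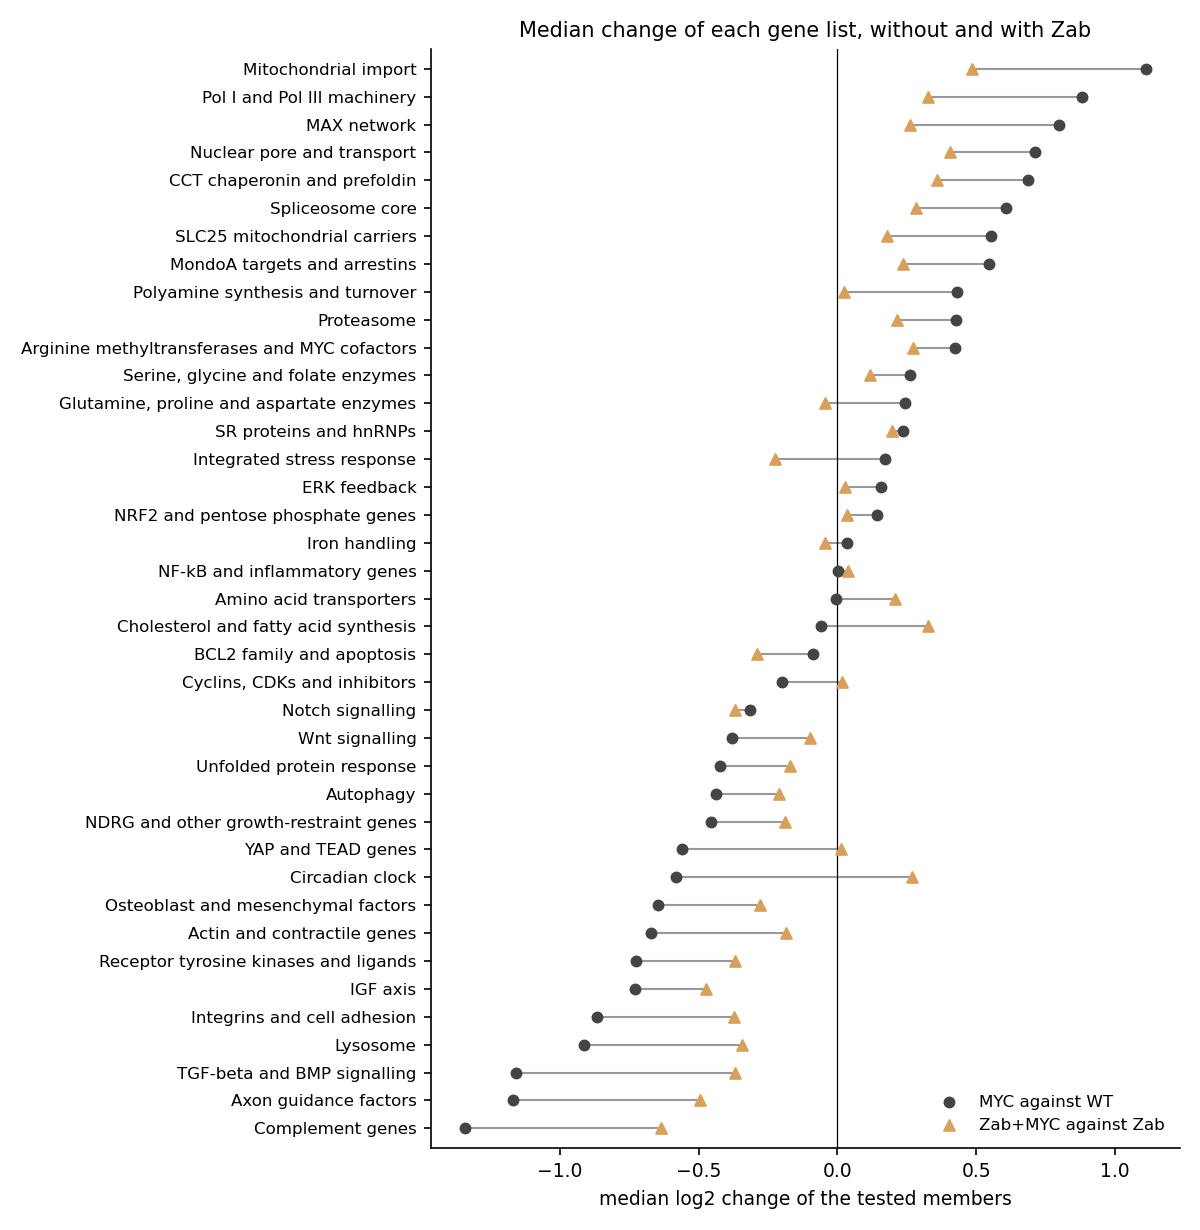
Median log2 change of the tested members of each list in MYC against WT (circles) and in Zab+MYC against Zab (triangles). In 32 of the 39 lists the triangle lies nearer 0 than the circle.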

How the data were processed

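Total RNA was isolated with Trizol and the Abclonal RNA-seq library kit was used, per the labels' protocols. Per the submitters' processing notes, the tools were Trim Galore 0.6.6, STAR (version not given in the sources used here) and HOMER 4.11.1, and the builds named were hg19 and dm6. Per the file headers, HOMER counted exon tags of hg19 RefSeq coding genes, 1 transcript per symbol, and whether strand was used is not stated. The deposited values are a signal, tags multiplied by 1 factor per library. Dividing by the step between values gave whole multiples for all values (tolerance 0.1 of a step), with 2 steps per tag, and these recovered tags entered every fit.

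Groups are the labelled genotypes, with 2 libraries in each of 4 groups and 686992 to 1326170 exon tags per library. CPM were scaled by TMM (edgeR 4.0.16), low genes were removed by filterByExpr, and limma 3.58.1 (trend) was fitted to log2(CPM + 2) over all 8 libraries, with Benjamini-Hochberg adjustment over all 9673 genes, a threshold of 0.05 and 4 residual and 67.2 prior degrees of freedom. R 4.3.3 and Python 3.11.15 were used. The fit was run on simulated data in which libraries of a group differed by counting noise and a small fixed spread. That run cannot show whether the p-values cover the spread between cultures. Intervals (95%) and the floor of 3 tags cover counting error only.

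The comparison and the 39 lists (1216 places, 988 tested) were chosen with earlier results of these data known. Genes were named by a rule: MYC, key members, in each role the 3 called higher and the 3 called lower with the largest change among those of at least 10 CPM in the higher group, all members of lists with 8 or fewer tested, and the 10 higher and 10 lower with the largest change among genes of at least 100 CPM. Promoters shown are those of the 10 largest rises or of key members called higher that hold the E-box upstream, by size of change. Genes on the chromosome of MYC were left out of this choice. Of the 9673 tested genes, 7889 matched a RefSeq promoter. Alternatives were DESeq2 1.42.0, edgeR's quasi-likelihood test, other scalings, filters and pseudocounts, a minimum fold, thinned tags, single transcripts, a replicate block and leaving out each library. A few genes that the rule names are not reported here.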

Additional observations from a re-analysis of the deposited data

Results flagged for a closer look

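For each of the 17 abundant genes below, among those that changed most without Zab, the MYC effect with Zab differed from that without Zab by limma's test of the difference, and in all 17 the effect was smaller with Zab. They were chosen for a large effect without Zab, and that choice partly fixes the direction of the difference. Differences are log2, with Zab minus without.

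MYC itself differed by -2.163, standing at 229.5 and 194 CPM in Zab and 707 and 705 in Zab+MYC. Among genes that rose with MYC, RGS16, which shortens G protein signals, differed by -2.256 (log2 1.79 with Zab) and NDUFAF4 by -2.326 (log2 0.75). PPARGC1B differed by -1.889 and NOP16 by -1.874, while FABP5 differed by -1.608. Smaller differences were those of ARC (-1.407), PPIF (-1.403) and SLCO4A1, an organic anion carrier (-1.378). All of these genes still rose with Zab, and their levels in the Zab libraries lay above those in WT.

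Among genes that fell, IGFBP5, a binding protein of insulin-like growth factors, differed by 3.369, with 137 and 107 CPM in Zab and 28.7 and 14.2 in Zab+MYC (log2 -2.47, limma adjusted p = 4.3e-18). CLIP3 differed by 3.357 (log2 -0.66 with Zab) and ZCCHC24, a zinc finger gene, by 3.059. The effect on ZCCHC24 was not called with Zab (log2 -0.73, limma adjusted p = 0.055). ARHGEF40 differed by 2.767, SERPINA1 by 2.743 and HAPLN1, which links hyaluronan to proteoglycans, by 2.59. ELFN1 differed by 2.393 and PHLDA1 by 1.973. In these 8 genes too the Zab libraries lay between the WT and the MYC libraries.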

How the results depend on the processing

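None of the 364 named genes that was called reversed direction with a call under the settings run for it, up to 22, and other genes were not followed one by one. Under DESeq2 1.42.0 the count of called genes fell to 926 for Zab+MYC against Zab and to 1118 for the difference, against 3997 for MYC against WT (2023 higher and 1974 lower, where limma had more lower than higher). A minimum of 1.5-fold in limma left 2501 genes for MYC against WT (1089 higher, 1412 lower), 221 with Zab and 531 for the difference. Over the 4604 tested genes counted on 1 transcript in all 8 libraries, where fewer genes were tested, 2824 were called (1368 higher and 1456 lower, with 588 and 884 past 2-fold), 1440 with Zab and 1479 for the difference. Leaving out 1 library in turn gave 4796 to 5980 for MYC against WT (2371 to 2937 higher and 2403 to 3104 lower, and past 2-fold 1227 to 1299 higher and 1704 to 1928 lower), 1712 (without Zab+MYC replicate 2) to 2648 with Zab and 2129 to 2500 for the difference. Same-numbered libraries shared only a number (correlations of their deviations -0.0226 to 0.0143), and with a replicate block 5650 were called for MYC against WT (2692 higher, 2958 lower), 2657 with Zab and 2756 for the difference, and of the 364 named genes ATG16L1 lost its call (limma adjusted p = 0.051). Scaling by library totals moved the median over all genes from log2 -0.04 to -0.16 and gave 2314 higher and 3396 lower. Of the named genes, 49 lost their call with DESeq2, 99 with the minimum fold and 0 with edgeR. The 2 libraries per group spread by little more than counting noise, so whether the calls cover the spread between cultures is not known. At 686992 to 1326170 exon tags per library, genes under 10 CPM rest on few tags.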

Other observations

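Along the genome, 1 stretch stood apart from the rest. In consecutive windows of 25 tested genes, the window on chromosome 5 from 140729828 to 141321612 (hg19) had a median change of log2 -2.27, and the next lowest of the 372 windows, on chromosome 9, had -0.86. With Zab the median of the same window was log2 -0.90. The window holds 19 protocadherin genes, which code for cell surface adhesion proteins. All 22 tested genes of the gamma cluster (PCDHG) fell, by log2 -2.31 to -2.19. They share their constant exons, so reads can count for many of them at once and the 22 values are close to 1 measurement. Over all protocadherins, 26 of 26 tested genes were lower (median log2 -2.27). These genes were looked at after their values were seen.

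Gene length was looked at because the share of exon tags differed between the groups. With the tested genes split by transcript length into 5 classes of equal number, the median change was log2 0.04 in the shortest class and -0.09 in the longest. The share called higher was 35.0% in the shortest and 21.1% in the longest class, and over genes counted on the same transcript 38.5% and 23.0%. The share called lower was 30.5% and 29.9%.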
